A study of Rattus norvegicus with 18 samples.

Results

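The callus of older and young rats was compared at 1 and 2 weeks after a femoral fracture, taken here as the cartilage stage. Of the 18 arrays of the series, 6 were used for this comparison: those of older, young and adult rats at 1 week and at 2 weeks, with the adult arrays as an intermediate age. All rats were female Sprague-Dawley rats, and the groups were defined by age, which was 6 weeks (young), 26 weeks (adult) or 52 weeks (older) at fracture. All had a closed transverse fracture of the mid-shaft of the femur that was held by an intramedullary rod. Each array read RNA pooled from 2 rats, so the variation between single rats cannot be seen. The segment held callus together with cortical bone and marrow, and adhering tissue cannot be told apart from callus. RNA was hybridised to the Affymetrix Rat Genome U34 array (chip A), and a value is a signal intensity scaled to the same trimmed mean on every array. There was 1 array per age and week, so the weeks stand in as replicates. The limma p-values measure how far the age differences vary between weeks, and their error also takes in the arrays at 4 and 6 weeks. They hold no spread between replicate arrays of the same age and week. The age difference had the same sign at both weeks for 53.1% of all genes and 49.5% of all probe sets. Very dim signals were set to a common floor before the fit. On all 6 arrays 7.69% of genes and 11.3% of probe sets were at this floor. Their difference was 0 and had no sign, so the shares with the same sign are not to be read against an even split. Paired values in the text are for 1 week and then 2 weeks. An exact permutation test of 2 arrays against 2 could not go below a two-sided p of 0.33, so tests come from limma fitted across all probe sets.

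A long bone fracture heals mainly by endochondral ossification. Mesenchymal cells from the periosteum and surrounding tissue first form a fibrous and cartilaginous callus, its chondrocytes enlarge and mineralise their matrix, and vessels, osteoclasts and osteoblasts then replace the cartilage with bone. Marrow inside the shaft is torn by the fracture and by the rod, and blood formation returns to it as the canal heals.

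The labels give age and time but no stage, so the presence of cartilage was checked with 4 markers. The summed signal of Col2a1, Col10a1, Acan and Comp ran from 124 to 696 without a fracture and from 10927 to 19782 on the 6 callus arrays. Young rats had sums of 15038 and 19782, adults 11106 and 18186, and older rats 10927 and 11743. Cartilage transcripts were thus present at all 3 ages in these weeks. The sums at 4 and 6 weeks were 4259 and 701 in young rats but 9085 and 6356 in adults and 6595 and 8722 in older rats, so the markers set these weeks apart less in the older ages. The 6 arrays correlated with each other at r = 0.959 to 0.987 over all probe sets, and their ratio of 3' to 5' actin signal, which rises as RNA degrades, lay between 1.65 and 1.76.

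No probe set reached an adjusted p under 0.05 between older and young rats in the limma fit over 8740 probe sets (0% called; the smallest adjusted p was 0.0755). At an unadjusted p under 0.05 there were 977 probe sets (11.2%), 493 higher (5.64%) and 484 lower (5.54%) in older rats. A t-test, as named in the study's methods but run here unpaired on unlogged signals, gave 1 probe set after Benjamini-Hochberg adjustment. Among the 4736 genes, each represented by 1 probe set, 297 (6.27%) were higher and 310 (6.55%) lower at an unadjusted p under 0.05. The count of calls moved with the filter on dim probe sets. When only the 3932 probe sets with a mean signal of 200 or more over the 18 arrays were fitted, 86 (2.19%) had an adjusted p under 0.05, 37 higher (0.941%) and 49 lower (1.25%) in older rats. The variance estimate then borrowed more from other probe sets (5.22 against 0.865 prior degrees of freedom). With 1 of the 6 arrays left out, this filtered fit called 26 probe sets (without the older 1-week array) to 68 (without the adult 2-week array), and 22 to 65 of them were among the 86. Of the 44 genes called in the filtered fit, 6 were called with any 1 of the 6 arrays left out (Bglap, Hba-a3, Hbb-b1, Medag, Rrad and Rsad2), and 38 lost the call at least once. Below, "the filtered fit" means this fit, and a gene is called only where the text says so. For every list count below, the share of all genes at an unadjusted p under 0.05 is 6.27% higher and 6.55% lower. In the filtered fit, 0.966% of its 2485 genes were called higher and 0.805% lower.

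A difference of 2-fold or more in the same direction at both weeks, with both older arrays beyond both young arrays, was found for 34 genes higher (0.718%) and 36 genes lower (0.76%) in older rats. The adult arrays lay between young and older at both weeks for 44 of these 70 genes (62.9%), against 17.2% of all genes. The choice of genes with wide gaps favours this, so it is given as a description. Adult against young gave 432 genes (9.12%) and older against adult 152 genes (3.21%) at an unadjusted p under 0.05. limma called 0 probe sets (0%) at an adjusted p under 0.05 in both. These comparisons share the young arrays or the older arrays with the main one.

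Transcripts of red cell precursors were lower in the older callus at both weeks. Of 11 erythroid genes (Car2, carbonic anhydrase, is also on the osteoclast list), 7 had an unadjusted p under 0.05 and 0 pointed the other way, and in all 11 both older arrays lay below both young arrays, as did 21.3% of all genes (18.5% lay above). The median log2 difference was -1.51 (-1.48 at 1 week and -1.89 at 2 weeks; median of all genes 0.00), and adult minus young was -1.21. The filtered fit called 5 of the 11 lower. Hbb, the beta chain of adult haemoglobin, had signals of 13742 and 23332 in young, 2687 and 9502 in adult and 1913 and 7729 in older rats. Both older arrays lay below both young arrays, and the older-to-young log2 difference was -2.22 (SE 0.36, a 4.66-fold lower signal, adjusted p = 0.19, and 0.00485 in the filtered fit, or 0.0557 there without the older 1-week array). Alas2, the first enzyme of haem synthesis in erythroid cells, had signals of 866 and 3438 in young, 490 and 727 in adult and 405 and 450 in older rats. In young rats its signal was higher at 2 weeks than at 1 week, while the older arrays were nearly level. Slc4a1, the anion exchanger of the red cell membrane, had signals of 226 and 1186, then 94.6 and 155, then 81.2 and 136 at the 3 ages. This was a log2 difference of -2.30 between older and young rats, but its other probe sets gave -0.36 and -0.46. Gata1, the transcription factor of erythroid and megakaryocyte cells, had signals of 67 and 267 in young and 48.2 and 63.6 in older rats. The haemoglobin probe sets may also read close relatives, and Hba-a3 and Hbb-b1 had log2 differences of -2.59 and -2.16.

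In intact femora the erythroid genes did not show this gap: the median older-minus-young difference was 0.29 there, and -0.67 and -0.95 at 4 and 6 weeks. The departure from the intact difference was called for 1 of the 11 genes, Hba-a3, and for 4 in the filtered fit (adjusted p = 0.000952 for Hba-a3, 0.00389 for Hbb-b1, 0.0373 for Slc4a1 and 0.046 for Hbb). The called Slc4a1 probe set departed by -2.74, while its other probe sets departed by 0.66 and -0.89. Fewer erythroid cells and less of each RNA per cell cannot be told apart in these pooled segments, here and for every cell type below. The summed signal of Hbb, Alas2, Slc4a1 and Epor ran from 14850 to 28037 in young and from 2414 to 8330 in older rats.

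The promoters of 3 genes that were lower in older rats are shown because each holds letters bound by a known factor of its cell type or pathway. They are the 250 bases before the gene start in RefSeq (rat build GRCr8), with matches on either strand in capitals. The motif AGATAA, a form of the site read by Gata1 and related factors, stood in the windows of Alas2, Epor and Rhd, the Rh blood group protein, and in none of Hbb, Hbb-b1 and Hba-a3. It occurred in 10.3% of 33469 promoters. Alas2 (chrX:22895200-22895449, plus strand) had it 136 bases before the start. Bglap (chr2:176137319-176137568, minus strand) held ACCACA, the core of a Runx site, found in 14.5% of promoters and in the window of Mmp13 but not in those of Ibsp and Spp1. Rsad2 (chr6:48788121-48788370, minus strand) held GAAA repeated after 2 bases, as in an interferon response element, found in 3.41% of promoters and here on the other strand, and not in the window of Irf1.
Alas2: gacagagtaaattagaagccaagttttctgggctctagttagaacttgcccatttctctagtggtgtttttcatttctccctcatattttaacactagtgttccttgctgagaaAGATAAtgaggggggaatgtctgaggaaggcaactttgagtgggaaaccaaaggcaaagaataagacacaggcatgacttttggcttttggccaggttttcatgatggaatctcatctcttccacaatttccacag
Bglap: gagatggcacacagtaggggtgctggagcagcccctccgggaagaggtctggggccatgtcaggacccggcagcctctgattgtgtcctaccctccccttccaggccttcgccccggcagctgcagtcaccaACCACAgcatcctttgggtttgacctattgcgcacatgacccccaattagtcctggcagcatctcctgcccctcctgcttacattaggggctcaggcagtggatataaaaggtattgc
Rsad2: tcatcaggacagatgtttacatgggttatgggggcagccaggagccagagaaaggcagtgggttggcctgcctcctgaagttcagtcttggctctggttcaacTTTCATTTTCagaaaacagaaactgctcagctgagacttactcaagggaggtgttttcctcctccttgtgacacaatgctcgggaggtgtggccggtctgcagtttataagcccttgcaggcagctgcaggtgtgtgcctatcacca
These matches describe the letters in the windows. Binding was not measured.

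Other marrow cell transcripts were also lower in the older callus, though not all. Of 7 neutrophil genes, 3 had an unadjusted p under 0.05, all lower, with a list median of -0.91 (-1.06 for adult minus young). S100a9, a calcium-binding protein abundant in neutrophils, had signals of 1406 and 774 in young, 988 and 252 in adult and 557 and 315 in older rats (log2 difference -1.32, SE 0.31; filtered fit adjusted p = 0.0442). Both older arrays lay below both young arrays, and the adult arrays overlapped both. RatNP-3b, a neutrophil defensin, had signals of 3043 and 1542 in young, 1159 and 191 in adult and 1362 and 440 in older rats. The median of the neutrophil list was -3.68 at 3 days and -1.95 and -2.15 at 4 and 6 weeks. Mast cell genes were lower in 5 of 13 at an unadjusted p under 0.05, with a list median of -0.15. The protease Cpa3 had signals of 166 and 336 in young and 34.7 and 129 in older rats (3.53-fold lower), and chymase (Cma1) 421 and 1179 against 196 and 336 (2.74-fold lower). Macrophage genes (10 genes, median 0.03, 0 with an unadjusted p under 0.05) and major histocompatibility class II genes (7 genes, median -0.11) did not share this shift. Platelet genes were mixed: Pf4 (platelet factor 4) had signals of 1145 and 1164 in young and 924 and 764 in older rats, and Itga2b, the platelet integrin chain, 237 and 207 against 234 and 217.

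**Figure D1:**
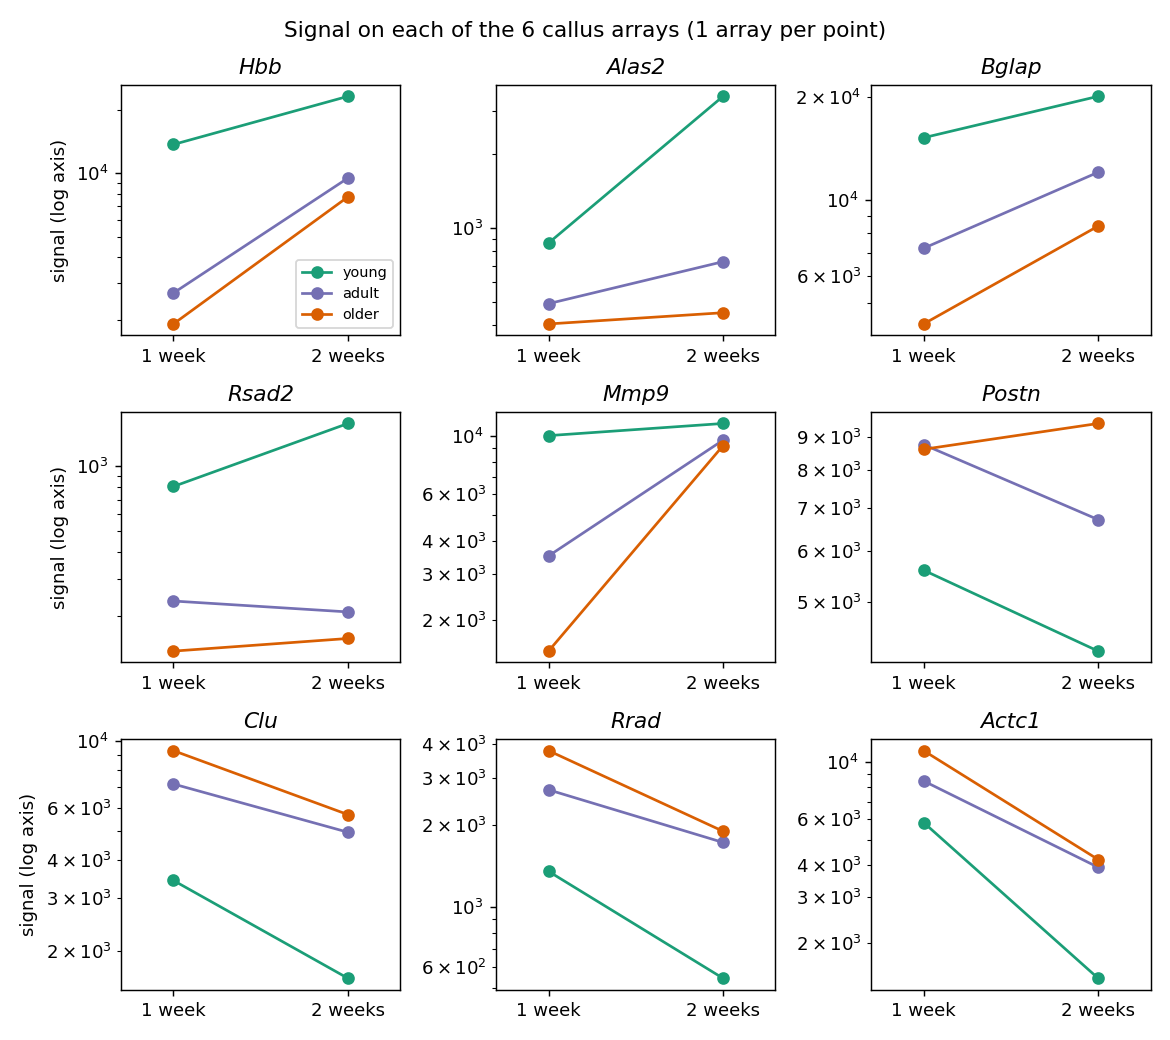
Signal (log axis) of 9 genes at 1 and 2 weeks, 1 array per point, with lines joining the weeks of each age. Hbb, Alas2, Bglap and Rsad2 lie highest in young rats, Mmp9 is far apart at 1 week only (10035 in young and 1523 in older), and Postn, Clu, Rrad and Actc1 lie lowest in young rats.

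Rsad2 and Alox15 had wide gaps between the ages. Rsad2, an interferon-induced antiviral protein, had signals of 805 and 1581 in young, 236 and 210 in adult and 138 and 158 in older rats. Older and adult arrays all lay below the young arrays (log2 difference -2.93, SE 0.38, 7.63-fold lower, adjusted p = 0.135, and 0.00305 in the filtered fit). A second probe set gave -1.85. In intact femora Rsad2 was at 9583 in young and 8178 in older rats. Alox15, a lipoxygenase of leukocytes and reticulocytes, had signals of 518 and 878 in young, 216 and 319 in adult and 220 and 135 in older rats. Its second probe set read 255 and 562 in young against 10.7 and 12.1 in older rats, which are below the floor of 20. Over the 13 complement and interferon genes the median was -0.58, with 4 lower and 1 higher at an unadjusted p under 0.05. Irf1, a transcription factor of the interferon response, had signals of 1311 and 1215 in young and 909 and 781 in older rats, and Mx1, an antiviral GTPase, 509 and 228 against 167 and 159. The complement protease C1s went the other way, with 982 and 442 in young against 1579 and 863 in older rats. Nos2, the inducible nitric oxide synthase, had signals of 458 and 428 against 63 and 47, but its 3 other probe sets gave log2 differences of -0.27, -0.26 and 0.49. The immunoglobulin gene Ighvl1 was 4.28-fold lower (223 and 426 against 47.4 and 109), its second probe set gave a log2 difference of -0.62, and the gap in intact femora was -2.02.

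Osteocalcin followed age, while most other bone genes did not pass the test. Bglap, which encodes osteocalcin, a protein of mature osteoblasts, had signals of 15208 and 20088 in young, 7236 and 12059 in adult and 4351 and 8398 in older rats. The 3 ages were in the same order at both weeks, and both older arrays lay below both young arrays. Its log2 difference was -1.53 (SE 0.16, 2.89-fold lower, adjusted p = 0.106, and 0.00239 in the filtered fit), and -0.90 for adult minus young. Bglap was already lower in intact femora (18968 in young against 5562 in older rats, with 6592 in adults, -1.77), and the departure from the intact difference was 0.24 (adjusted p = 0.797). Of the 11 bone genes, 2 had an unadjusted p under 0.05 and both were lower (6.55% of all genes were), with a list median of -0.26. Alkaline phosphatase (Alpl) was at 19521 and 25627 in young and 18057 and 20448 in older rats, and osteopontin (Spp1) at 8342 and 15968 against 8074 and 11909. Bone sialoprotein (Ibsp), made as bone begins to mineralise, was at 944 and 6960 in young and 4430 and 6334 in older rats, so the young 1-week array alone was low. The receptor for parathyroid hormone, Pth1r, was at 3155 and 3608 in young and 1943 and 2455 in older rats (1.54-fold lower, unadjusted p = 0.00174), while a dim probe set of it gave 0.48. Bmp3, a bone morphogenetic protein of osteoblasts, was 3.27-fold lower (375 and 597 in young, 136 and 270 in adult, 93.4 and 224 in older rats, filtered fit adjusted p = 0.0108). Pth1r and Bmp3 were also lower in intact older femora (-0.71 and -1.45), and their departures from this, 0.08 and -0.26, were not called.

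Osteoclast transcripts were far apart at 1 week and close at 2 weeks. The median of 8 osteoclast genes was -1.98 at 1 week and -0.29 at 2 weeks, and 4 of 8 had an unadjusted p under 0.05, all lower. Acp5, the tartrate-resistant acid phosphatase of osteoclasts, had signals of 12478 and 15814 in young, 4619 and 14769 in adult and 1815 and 12802 in older rats. Cathepsin K (Ctsk), which degrades bone collagen, had 14285 and 15850, then 8336 and 15016, then 4802 and 13633. Mmp9, a gelatinase of osteoclasts and neutrophils, had 10035 and 11160, then 3502 and 9644, then 1523 and 9194. In each of the 3 genes the older 1-week array was lowest and the 2-week arrays were within 1 log2 unit of each other. Collagenase 3 (Mmp13), made by hypertrophic chondrocytes and osteoblasts, followed the same order with 8915 and 12241 in young and 2306 and 9523 in older rats. At 3 days the osteoclast median was -2.12, and at 4 and 6 weeks it was -0.13 and 0.03. The change of the gap from 1 week to 2 weeks rests on 1 array per age and week and was not tested.

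Cartilage matrix transcripts were somewhat lower in the older callus, without passing a test. The median of 8 genes was -0.59 (-0.41 for adult minus young), and 2 of 8 had an unadjusted p under 0.05, both lower. Col2a1, the main collagen of cartilage, had signals of 9903 and 11100 in young, 6720 and 10641 in adult and 6620 and 6999 in older rats (log2 difference -0.62, SE 0.91, unadjusted p = 0.527). Both older arrays lay below both young arrays by less than the error of the fit. Col10a1, the collagen of hypertrophic chondrocytes, had 2205 and 6501 in young, 1208 and 4894 in adult and 1138 and 2374 in older rats (-1.20, SE 0.90, unadjusted p = 0.241). Col11a1, a minor fibril collagen, had 2677 and 2468 in young and 1737 and 1806 in older rats (-0.54, SE 0.19, unadjusted p = 0.0405). Acan, the aggrecan core protein, was at 1367 and 1086 in young and 1893 and 1284 in older rats, and Comp, a cartilage glycoprotein, at 1564 and 1096 against 1276 and 1086. Cartilage growth regulators, such as bone morphogenetic proteins, had a median of -0.06 over 10 genes. At 6 weeks Col2a1 was at 262 in young and 5698 in older rats, and the error of the fit includes the spread at 4 and 6 weeks.

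**Figure D2:**
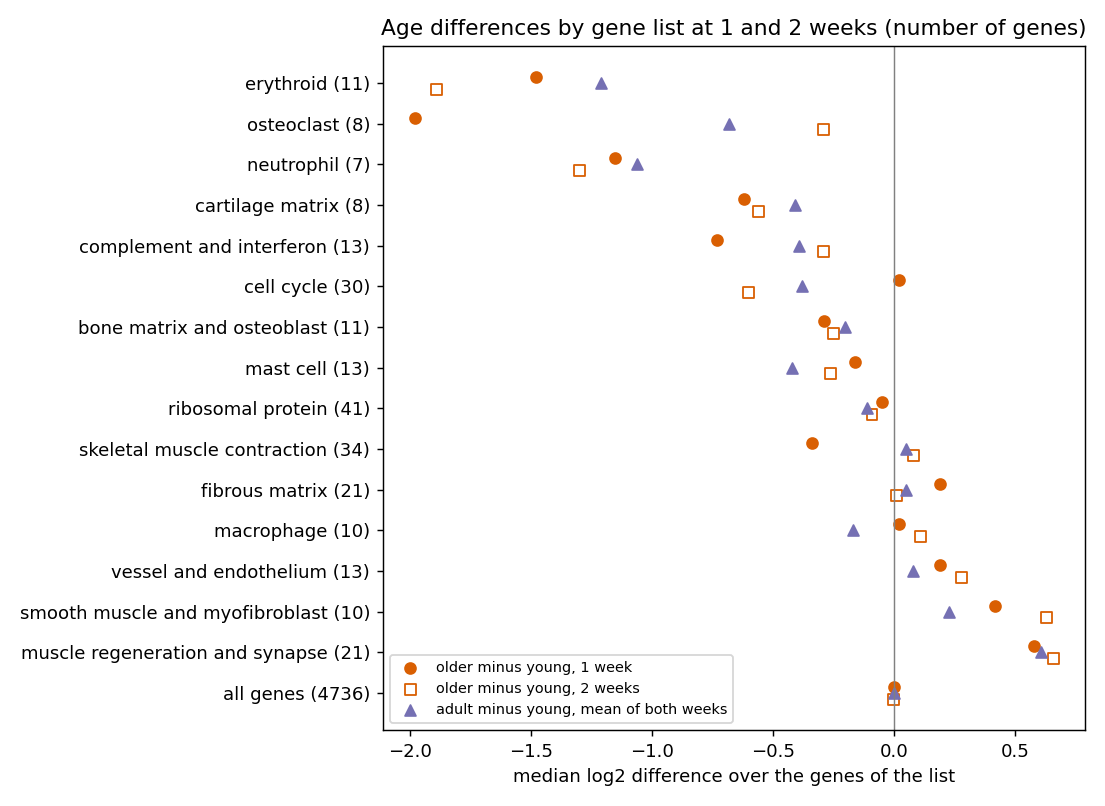
Median log2 difference over the genes of 15 lists and over all genes, for older minus young at 1 week and at 2 weeks and for adult minus young over both weeks. Erythroid, neutrophil and 1-week osteoclast medians lie lowest, and muscle regeneration and smooth muscle medians highest.

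Some secreted matrix proteins were higher in the older callus. Periostin (Postn), made by periosteal cells and fibroblasts, had signals of 5602 and 4199 in young, 8764 and 6709 in adult and 8620 and 9450 in older rats. Both older arrays lay above both young arrays (log2 difference 0.90, SE 0.16, 1.86-fold, adjusted p = 0.204, and 0.0374 in the filtered fit). That call was lost whichever of the 6 arrays was left out, as were those of Tagln, Thbs4 and Crabp2 below. Tenascin N (Tnn), a matrix protein of the periosteum, had 2433 and 822 in young, 5991 and 1776 in adult and 6239 and 4368 in older rats (1.88, SE 0.36, filtered fit adjusted p = 0.0155). Aebp1, a collagen-binding protein, was 2.30-fold higher (1222 and 891 against 2404 and 2396). Biglycan (Bgn) had 6987 and 4845 against 8405 and 8135, and Loxl1, which cross-links elastin, 2655 and 2134 against 3685 and 3890. Of 21 fibrous matrix genes 6 were higher at an unadjusted p under 0.05 and 0 lower, with a median of 0.10. The main fibrillar collagens were level: Col1a1 was at 18491 and 22117 in young and 17738 and 19168 in older rats, and Col3a1 at 14233 and 16102 against 15210 and 14477. Col1a1 differed by -0.13 (SE 0.21) and Col3a1 by -0.03 (SE 0.12). The gelatinase Mmp2 was at 4251 and 4422 in young and 6685 and 5568 in older rats (0.49, SE 0.12). Fn1, fibronectin, was at 8529 and 8757 against 11099 and 11010, while a dimmer probe set gave a log2 difference of 1.85.

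Genes of regenerating muscle and of smooth muscle were higher in the older callus, while the median of contractile muscle genes was below 0 at 1 week only. Of 21 genes for muscle regeneration and the nerve-muscle synapse, 8 were higher at an unadjusted p under 0.05 and 0 lower, and the median was 0.59 (0.61 for adult minus young). At 4 and 6 weeks the median was 0.83 and 0.33. There limma called 2 of the 21 higher at an adjusted p under 0.05, beside 0.549% of all genes. Myogenin (Myog), a transcription factor of muscle differentiation, had signals of 446 and 154 in young, 972 and 462 in adult and 1958 and 317 in older rats. Myf6, of the same family, had 809 and 329, then 1548 and 620, then 1762 and 653, with an older-to-young log2 difference of 1.06 (SE 0.07, adjusted p = 0.0755, and 0.0131 in the filtered fit). For both, the older array was above the young array of the same week, but the older 2-week array was below the young 1-week array. Cardiac actin (Actc1), the actin of embryonic muscle, had 5833 and 1459 against 11056 and 4197, and the acetylcholine receptor subunits Chrna1 and Chrnd were higher by 0.97 and 1.11 on the log2 scale at unadjusted p of 0.0105 and 0.0107. The filtered fit called Myog, Myf6 and Actc1, each lost with 1 or more single arrays left out.

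Over 34 contractile muscle genes the median was -0.19 (-0.34 at 1 week and 0.08 at 2 weeks). At an unadjusted p under 0.05, 2 were higher and 1 lower, beside 6.27% and 6.55% of all genes. The filtered fit called Ckmt2, the creatine kinase of muscle mitochondria, lower (1185 and 1882 in young against 619 and 1017 in older rats, 1.88-fold, adjusted p = 0.0355), as it did a second probe set of it (0.0385). The summed signal of 6 muscle markers (Acta1, Ckm, Myh4, Tnnt3, Atp2a1 and Pvalb) was 79241 and 93117 in young and 60820 and 85658 in older rats, so it did not move with the regeneration genes. The part of adhering muscle in the result was not tested. Among 10 smooth muscle and myofibroblast genes, 6 were higher and 0 lower at an unadjusted p under 0.05 (median 0.46). At 4 and 6 weeks the median of these 10 genes was 0.75 and 0.96. There limma called 3 of them higher at an adjusted p under 0.05, beside 0.549% of all genes. Tagln, an actin-binding protein of smooth muscle, had 1521 and 1296 in young, 2178 and 1523 in adult and 2809 and 2171 in older rats (0.81, SE 0.11, filtered fit adjusted p = 0.049). Smooth muscle actin (Acta2) had 4572 and 3649 against 6649 and 5714, and its older arrays lay above both young arrays. Of 13 vessel genes 4 were higher and 0 lower at an unadjusted p under 0.05, among them caveolin (Cav1) with 418 and 395 against 823 and 622. The endothelial receptors Kdr and Flt1 differed by -0.07 and -0.10.

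**Figure D3:**
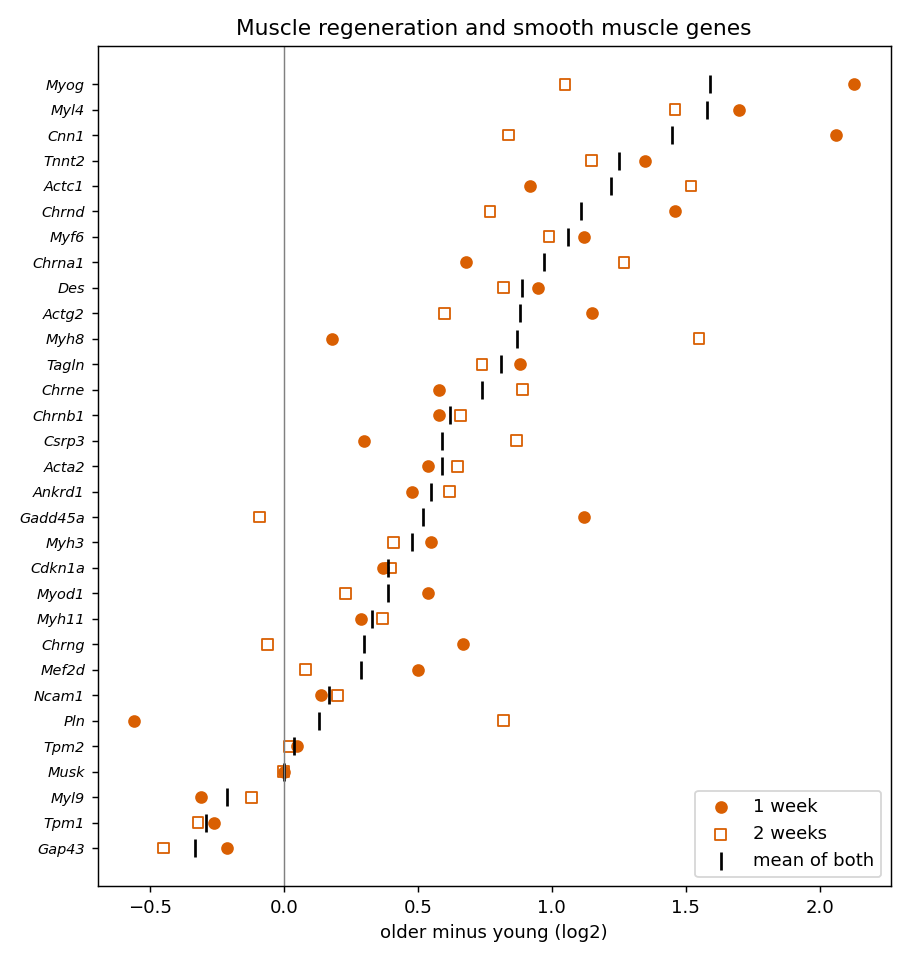
Older minus young log2 difference for the genes of the muscle regeneration and smooth muscle lists that were above the floor on any of the 6 arrays, at 1 week and 2 weeks with their mean as a tick. Most points lie above 0 at both weeks, with the means of Myog (1.59) and Myl4 (1.58) highest.

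Other genes with wide gaps came from no single list. Clusterin (Clu), a secreted chaperone, had signals of 3429 and 1619 in young, 7187 and 4964 in adult and 9282 and 5683 in older rats (1.62, SE 0.26, 3.08-fold, filtered fit adjusted p = 0.0114, and 0.0156 to 0.0895 with 1 array left out). The small GTPase Rrad had 1353 and 545, then 2707 and 1730, then 3776 and 1903 (1.64, SE 0.16, adjusted p = 0.106, and 0.00455 in the filtered fit). For both genes all 4 adult and older arrays lay above the young array of the same week. Intact older femora were also higher than young ones in Clu, Rrad, Hspa1a and Myf6 (log2 differences of 1.19, 1.14, 1.00 and 0.84), and no departure from these was called. Medag, named for a role in fat cell formation, had 357 and 213, then 1384 and 651, then 1673 and 952 (4.58-fold, filtered fit adjusted p = 0.00485), and it was also higher at 4 and 6 weeks (2.18, adjusted p = 0.0538). Crabp2, a retinoic acid carrier, Il33, an alarm cytokine, and the secreted protein Crispld2 were 2.97-fold, 2.88-fold and 2.67-fold higher, all called in the filtered fit. Pdk4, a kinase that limits glucose oxidation, had 236 and 47.7 against 505 and 321. Dnm3, Ifitm10, Cxcl13 and Hbegf were 4.04-fold, 3.70-fold, 3.27-fold and 2.83-fold higher with signals of 533 or less in young and older rats apart from Cxcl13, which reached 637. A dimmer Hbegf probe set gave -0.02. At 4 and 6 weeks the log2 difference was 3.47 for Pdk4, 2.24 for Crabp2, 2.15 for Dnm3, 1.47 for Il33 and 1.38 for Crispld2. It was 0.81 for Hbegf, 0.72 for Clu, 0.48 for Cxcl13, 0.29 for Hspa1a, 0.05 for Ifitm10 and -0.25 for Rrad. The heat shock gene Hspa1a had 245 and 173 in young, 512 and 362 in adult and 611 and 455 in older rats (2.56-fold, filtered fit adjusted p = 0.0131), while 6 of 24 immediate early and heat shock genes were higher at an unadjusted p under 0.05. Outside the naming rule, and chosen after their values were seen, a probe set of Igf1, insulin-like growth factor 1, read 226 and 107 in young against 1457 and 375 in older rats (filtered fit adjusted p = 0.00485), although the brightest Igf1 probe set read 4103 and 2991 against 4014 and 4176. Nes, nestin, read 588 and 449 against 1294 and 934 (0.0134).

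Genes of cell division differed in median between the weeks, on 1 array per age and week, which was not tested. The median of 30 genes was 0.02 at 1 week, -0.60 at 2 weeks, and -0.74 and -0.70 at 4 and 6 weeks. Over both weeks 6 were lower and 1 higher at an unadjusted p under 0.05. Top2a, the topoisomerase of dividing cells, had 799 and 1942 in young and 912 and 894 in older rats, and Dut, which keeps uracil out of DNA, had 788 and 1497 against 485 and 534. The young 2-week array was the highest of the 6 in both genes, as it was for Alas2. Ribosomal protein genes had a median of -0.07 over 41 genes, with 4 lower at an unadjusted p under 0.05. Respiratory chain genes had a median of -0.28 over 27 genes, with 2 lower, beside 6.55% of all genes.

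**Figure D4:**
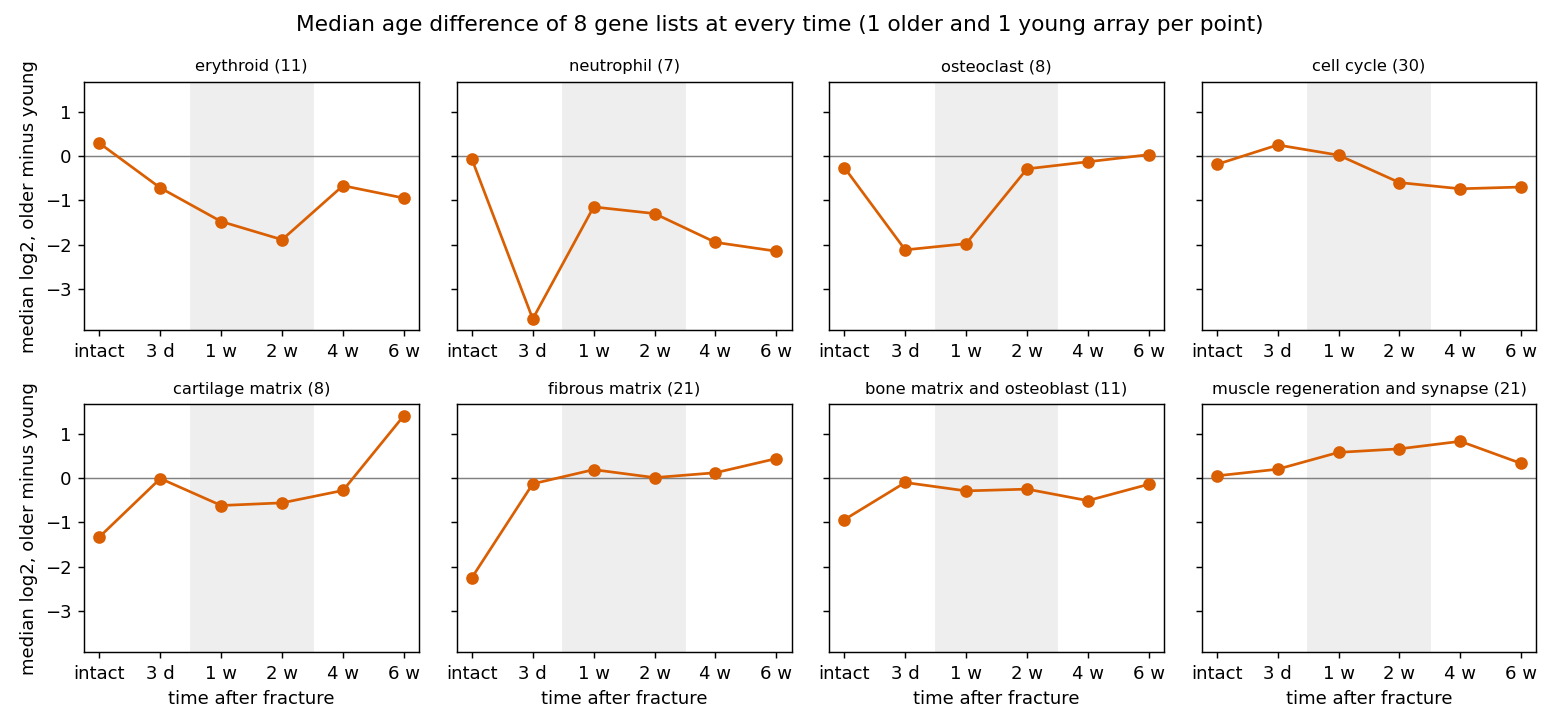
Median older-minus-young log2 difference of 8 gene lists (gene counts in brackets) with no fracture and at 3 days and 1, 2, 4 and 6 weeks, 1 array per age at each point, with 1 and 2 weeks shaded. The osteoclast gap closes between 1 and 2 weeks, the fibrous matrix gap is present in intact femora and absent at 1 and 2 weeks, and the erythroid gap opens after fracture.

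The age difference at 1 and 2 weeks was also set against that of intact femora. In this contrast 104 genes were called at an adjusted p under 0.05 (2.20%), 64 higher (1.35%) and 40 lower (0.845%), from 194 called probe sets (2.22%). The intact difference rests on 1 older and 1 young array, whose own spread is not in the test and is assumed to be that of the later arrays. Of the 104 genes, 37 (35.6%) had all 6 arrays of 1 and 2 weeks below the floor, against 7.69% of all genes, and among the 2485 genes with a mean signal of 200 or more 43 were called higher (1.73%) and 10 lower (0.402%). The filtered fit of the same 2485 genes called 80 higher (3.22%) and 16 lower (0.644%). The intact arrays also had a higher 3' to 5' actin ratio (2.10 to 2.61), and its part in the result was not tested beyond its use as a covariate.

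Matrix genes led the calls. In intact femora they were far lower in older than in young rats, and in the callus the ages met. Of 21 fibrous matrix genes 11 were called higher and 0 lower (17 and 0 in the filtered fit), with a median older-minus-young difference of -2.25 in intact femora and 0.10 at 1 and 2 weeks. Col5a2, a minor chain of fibrillar collagen, had intact signals of 6871 in young, 1258 in adults and 693 in older rats, and callus signals of 10638 and 9078, then 10040 and 9339, then 10171 and 10885. Its departure was 3.41 (SE 0.22, adjusted p = 0.00357). Col11a1 had intact signals of 1735, 129 and 63.1 at the 3 ages (departure 4.24, SE 0.34, adjusted p = 0.00664), and Acan 319, 24.4 and 16.4 (4.35, SE 0.63, adjusted p = 0.0491, with the older value below the floor). Gpx7, a peroxidase of the endoplasmic reticulum, had 330, 31.2 and 26 and departed by 4.36 (SE 0.32, adjusted p = 0.00486). The adult intact array was close to the older one in these genes. Tnn and Aebp1 departed by 4.57 and 4.12, since they were lower in intact older femora and higher in older callus. The call of Acan was lost under 11 of the alternatives tried and that of Tnn under 9.

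**Figure D5:**
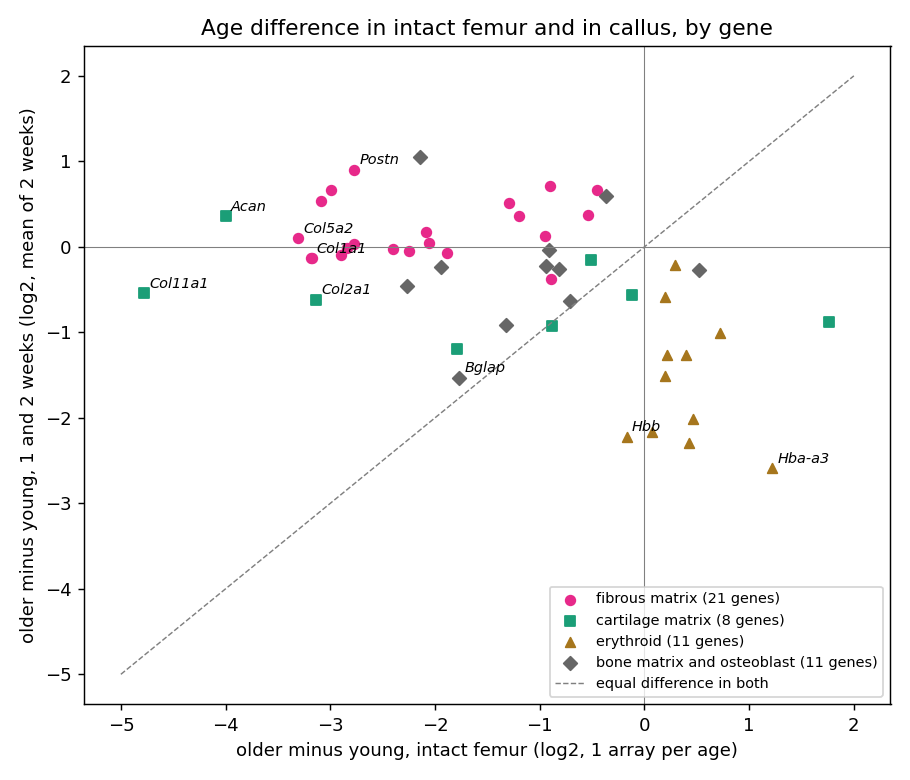
Older minus young log2 difference in intact femora (horizontal, 1 array per age) against that at 1 and 2 weeks (vertical, mean of both weeks) for the genes of 4 lists, with a dashed line where both are equal. Fibrous matrix genes lie left of 0 and near 0 vertically, erythroid genes lie below the line, and Bglap lies near it.

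In the other direction, Hba-a3 departed by -3.80 (SE 0.45, adjusted p = 0.0283) and gamma-synuclein (Sncg), a protein of peripheral neurons and fat, by -3.67 (SE 0.47, adjusted p = 0.0356). Sncg had intact signals of 58.7 in young, 354 in adults and 1052 in older rats, and callus signals of 278 and 323, then 332 and 277, then 397 and 445. The age gap of Sncg was thus wide in intact femora and narrow in callus. Gys2, Treh and Cacnb2 were also called lower, with callus signals of 25.6 or less on all 6 arrays. Against 4 and 6 weeks, limma called 0 probe sets at an adjusted p under 0.05 (937, or 10.7%, at an unadjusted p under 0.05), with a smallest adjusted p of 0.0971. The lowest p-values there were those of Cacnb2, Fgr and Chrna4 in one direction and Enpep, Slc2a1 and Nupr1 in the other. Cacnb2 was below the floor on all 6 callus arrays and Chrna4 on 5 of them. Fgr was just above it, with callus signals of 21.6 to 28.9. At 4 and 6 weeks themselves 61 genes (1.29%) were called between older and young rats, 26 higher (0.549%) and 35 lower (0.739%).

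The nerve-related genes that the study itself picked for their age pattern were examined last. They were chosen on data that include these arrays, so their direction is not independent evidence. Of 10 probe sets picked for a greater response in older rats, 7 were higher at an unadjusted p under 0.05 and 0 lower. Thbs4, thrombospondin 4, had 1567 and 698 in young, 3400 and 1892 in adult and 3217 and 2250 in older rats, and Spon1, F-spondin, 367 and 216, then 761 and 343, then 771 and 576. Both were called in the filtered fit (adjusted p = 0.0436 and 0.0257). Ntm, neurotrimin, was near the floor in young rats (9.6 and 12.5) and at 50.6 and 68 in older rats. Of 8 probe sets picked for a greater response in young rats 4 were lower and 0 higher. Ptprz1, a receptor phosphatase of neural and bone cells, had 578 and 418, then 219 and 288, then 136 and 282. Of 9 probe sets picked for a prolonged fall in older rats 2 were lower and 0 higher at 1 and 2 weeks. The study described that group by its recovery at 4 and 6 weeks. The group's median was -0.57 and -1.15 then, against -0.2 at 1 and 2 weeks. Among 15 Schwann cell genes 0 had an unadjusted p under 0.05 (limma; 0 called), and of 23 neuron genes 1 was higher, the filament gene Prph with 78.1 and 40 in young, 192 and 120 in adult and 218 and 137 in older rats. The summed signal of the Schwann cell markers Mbp and Mag was 334 to 348 in young and 354 to 356 in older rats.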

How the data were processed

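The deposited value of a probe set is a signal intensity from Affymetrix Microarray Suite 5.0, scaled by the authors to a trimmed mean of 500. Of 8799 probe sets, 59 controls were left out and 8740 tested; 7006 had 1 gene symbol, 308 several and 1426 none, and a gene was represented by the brightest of its probe sets (mean log2 signal). Signals below 20 were set to 20 and log2 transformed. limma 3.58.1 (R 4.3.3; lmFit, then eBayes with a mean-variance trend) was fitted to all 18 arrays with age within each phase (intact, 3 days, 1 and 2 weeks, 4 and 6 weeks) and week as a covariate that pairs the ages, leaving 4 residual degrees of freedom. p-values were adjusted by Benjamini-Hochberg over all 8740 probe sets. Figures were drawn with matplotlib 3.10.9.

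Groups came from the labels. The gene lists, markers and comparison were chosen with earlier results of these data known. Named genes were the 12 highest and 12 lowest differences among genes past the 2-fold rule without overlap whose higher group had a mean signal of 200 or more, up to 5 called genes each way (or, with none called, the 3 lowest p) for each departure from intact femora and from 4 and 6 weeks, in each list up to 4 members that had the widest gaps without overlap, the defining genes of described lists and the nerve-related genes of the study. Other list members and the genes called in the filtered fit were named after their values were seen. Of 148 genes under the rule, 49 had several probe sets, which pointed in opposite directions for 13. Alternatives were median centring, quantile normalization, log2(signal + 50), a floor of 100, no trend, a robust fit, no pairing by week and the actin ratio as a covariate. Others were a filter on dim probe sets, fewer arrays, the methods' t-test (unpaired, on unlogged signals) and leaving out each array. Arrays give no count depth, so the number of arrays limits the precision, and 17.2% to 19.1% of probe sets were below the floor on each of the 6 arrays.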

Additional observations from a re-analysis of the deposited data

Results flagged for a closer look

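The age difference at 1 and 2 weeks departed from that of intact femora by the test of the difference itself (an interaction term) for 194 probe sets at a limma adjusted p under 0.05. This rests on 1 older and 1 young intact array, and 77 of the 194 (39.7%) had all 6 callus arrays below the floor, against 11.3% of all probe sets. The departures (older minus young log2 in callus, less that in intact femora) were 4.57 for Tnn, 4.36 for Gpx7, 4.35 for Acan, 4.24 for Col11a1 and 4.12 for Aebp1. They were -3.80 for Hba-a3, -3.67 for Sncg, -2.32 for Gys2, -1.84 for Treh and -1.67 for Cacnb2. Gys2 and Cacnb2 were below the floor on all 6 callus arrays and Treh on 3 of them, so their departures come from the intact arrays.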

How the results depend on the processing

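The ages are paired by week, which is the replicate block of the fit, and the rats of a week differ between ages. Beside 0 calls between older and young rats, 1 probe set was called with quantile normalization, with only the 6 arrays and with the methods' t-test, 5 with median centring, 7 with a floor of 100, 24 with log2(signal + 50), 4 with no pairing by week (no replicate block), 86 with a mean signal of 200 or more and 39 among probe sets above the floor on any of the 6 arrays, a filter chosen after seeing the data. Leaving out 1 array gave 2 (without the adult 1-week array) to 16 calls (without the young 1-week array). The 493 probe sets higher at an unadjusted p under 0.05 became 324 with a mean signal of 200 or more, 227 by the methods' t-test and 314 to 532 with 1 array left out, and the 484 lower became 290 with that filter, 310 with no pairing and 315 to 437. Adult against young gave 1 call with median centring and with no pairing, 3 with a floor of 100, 2 with log2(signal + 50), 29 and 5 with the filters, and 1 to 25 (without the adult 1-week array) with 1 array left out. Older against adult gave 1 with a floor of 100 and 1 to 23 (without the adult 1-week array). Against intact femora, 194 calls became 99 with log2(signal + 50) and 108 to 140 with 1 array left out. The 113 higher became 71 and 52 to 69, and the 81 lower 28, 55 to 77, and 41 and 28 with the filters. Against 4 and 6 weeks, calls were 2 with quantile normalization, 12 with a floor of 100, 8 with no pairing, 1 with the actin ratio and 0 to 14 with 1 array left out. Beside 70 probe sets higher and 75 lower by 2-fold without overlap, 31 and 42 were the counts with a floor of 100, 26 and 39 with log2(signal + 50), 26 and 45 with a mean signal of 200 or more, and 2 and 9 at 4-fold, with 220 and 216 at 1.5-fold. Median centring changed the split at an unadjusted p under 0.05 from 854 higher and 527 lower to 543 and 879 against intact femora, and from 547 and 390 to 354 and 594 against 4 and 6 weeks. Reversed values were the cartilage growth regulator median at 1 week alone (0.07) and, without the young 1-week array, Col9a1 (0.01), Fosl1 (-0.04), Ngfr (-0.16) and Gp5 (-0.23). With single arrays left out, Col9a1 ranged from -1.13, and Fosl1 and Ngfr up to 1.56 and 0.61. For these changes the cause was not tested.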
